A study of Mus musculus with 8 samples.

Results

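Sites that were listed as DNase I hotspots in only 1 of 8 DNase-seq libraries, the one from cells with an induced dominant-negative CHD4, were described here. Hotspots of the 8 libraries that shared at least 1 bp were joined, which gave 99999 sites. Members were chosen by their density: a site was kept when it was listed only in DNCHD4 cells without tetracycline and its highest tag density there was at least 2 times the lowest density listed in DNCHD4 cells with tetracycline. These 2963 sites are called strong unique sites below. They were 3.86% of the 76777 sites of that library (95% Wilson interval 3.73 to 4.00), and another 28994 sites listed only there lay under the threshold of 16.1. Because of this choice, densities in the DNCHD4 libraries are given as a description and no test is attached to them.

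The study used 3134 cells, an epithelial line from mouse mammary tissue, and 3 derived lines that hold a tetracycline-controlled dominant-negative Brg1 (DNBrg1), CHD4 (DNCHD4) or Snf2h (DNSnf2h). Each of the 4 lines was grown with tetracycline or without it for 48 hours, with 1 library per line and state, so no difference has a replicate check. The DNCHD4 line carries a mouse Chd4 changed at lysine 250, with a triple FLAG tag, in a retroviral vector in 3134 cells that hold the tetracycline transactivator, and the labels name no separate clones. Nuclei were digested for 3 min with 60 to 80 U/ml DNase I, and fragments of 100 to 500 bp were sequenced.

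CHD4 is the ATPase of the NuRD complex, which joins nucleosome remodeling to histone deacetylation and is best known for repressing genes, although it also sits at active promoters and enhancers. DNase I cuts DNA where nucleosomes are absent or displaced, so a hotspot marks a promoter, enhancer or other stretch of open chromatin. A dominant-negative ATPase takes the place of the normal subunit in its complex without doing its work. The lists are on mouse build mm9, and no gene annotation or genome sequence of that build was used here, so sites are given by position only.

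The rule gave many sites in the DNCHD4 line and few elsewhere, but the lists are of unequal length. A unique site must be absent from all 7 other lists, and the DNCHD4 lists are the longest, with 78093 and 48888 hotspots. The others hold 24890 to 35083, so sites of another line are set against longer lists, at a common threshold too. The part of list length in the counts was not tested. When each library was set against the library of its own line in the other tetracycline state, strong unique sites numbered 12 in parental cells with and 1 without tetracycline, which is 0.0352% and 0.00296% of the sites of those libraries. There were 206 (0.729%) in DNBrg1 cells with and 1 (0.00341%) without tetracycline, and 13 (0.0544%) and 30 (0.092%) in DNSnf2h cells. DNCHD4 cells with tetracycline, in which the protein was not induced, had 2216 (4.62%), against a threshold of 10.2 that was lower than the 16.1 used for the induced cells. At 1 threshold of 16.1 for all libraries, the count was 302 in DNCHD4 cells with tetracycline, 0.978% of the sites at or above it. Without tetracycline it was 2963 (8.70%), and in the other lines at most 332, in DNBrg1 cells with tetracycline (1.17%). At a threshold of 32.8, DNCHD4 cells had 1 such site with and 317 without tetracycline, and shares were not computed. Densities are scaled per library, with medians of 11.3 to 38.1, so 1 threshold is not equal across them. At 16.1 all 28268 sites of DNBrg1 cells with tetracycline passed, and 9922 of 32616 in DNSnf2h cells without it. The densest site found only in the uninduced library stood at 49.9, against 149 in the induced one.

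**Figure D1:**
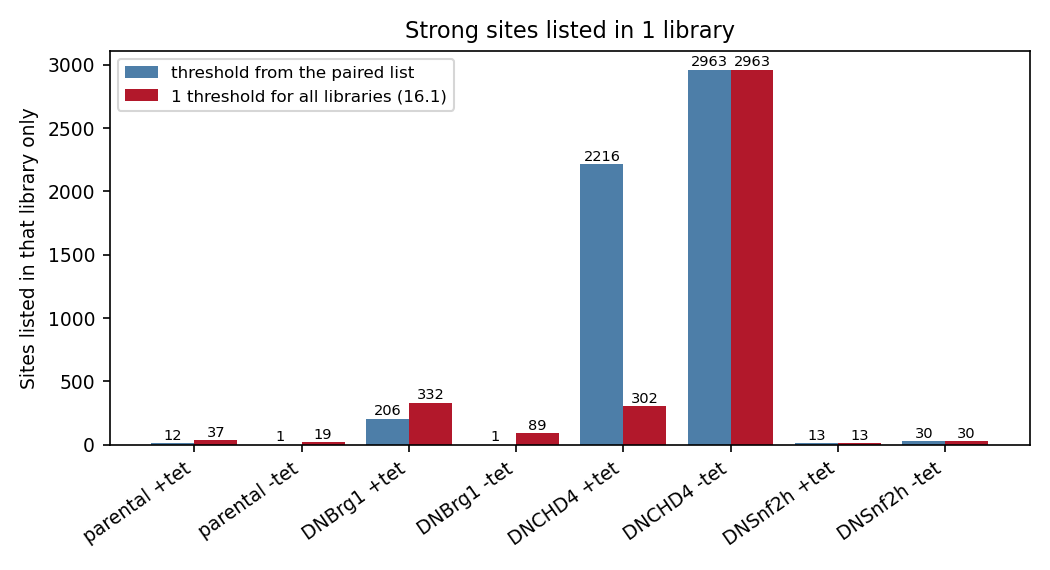
The bars give the number of sites listed in 1 library only, for each of the 8 libraries, above a threshold set from the other library of the line (blue) or above 16.1 in every library (red). At 1 threshold, DNCHD4 cells without tetracycline had 2963 such sites (8.70% of the sites at or above it) and DNCHD4 cells with tetracycline 302 (0.978%).

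The strong unique sites made up 45.5% of the sites that were at least 2-fold denser in DNCHD4 cells without tetracycline. Of the 84024 sites listed in either DNCHD4 library, 6509 (7.75%) were at least 2-fold higher without tetracycline, where a site listed once was set against the lowest value in its counterpart list. The rule used this contrast, so nothing is read from the share. A further 2413 of the 6509 were listed in both DNCHD4 libraries. The remaining 1133 were as strong and also missing from the uninduced DNCHD4 list, but were listed in another line. Of those 1133 sites, 646 were listed in parental cells without tetracycline and 149 in parental cells with it, 487 and 188 in DNBrg1 cells, and 211 and 35 in DNSnf2h cells. At the 646 sites listed in parental cells without tetracycline the median density was 14.2 there, against 23.7 in induced DNCHD4 cells. At the 188 sites listed in DNBrg1 cells with tetracycline the median was 22.3 there against 21.5 in induced DNCHD4 cells. Of these 188 sites, 90 were at least as dense in the DNBrg1 library. The sites were chosen for a high density in induced DNCHD4 cells, and the other lists faced no such cut. Densities are also scaled per library, so no difference between lines is read from these medians. The lists begin at different densities, 10.04 without and 13.02 with tetracycline in parental cells, so a site can be absent from 1 of them without a difference in density.

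Most strong unique sites were modest hotspots. Their density ran from 16.3 to 149, with a median of 20.4 and quartiles of 17.8 and 25.9, and 1403 of them lay between the threshold and 20. In tags, where 1 tag was worth a density of 0.196, that is 83 to 763 tags with a median of 104. Every one was made of a single hotspot. Relative to the lowest density of the uninduced list, 8.05, the sites were 2.02 to 18.6 times as high, 337 of them at least 4 times and 10 at least 10 times. The counting error is large beside this margin: the lower 95% limit of the tag count stayed above the threshold in 1658 of the 2963 sites (55.96%).

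Strong unique sites were a larger share of the weak than of the strong sites of their library. Between 16.1 and 20, 23.9% of the sites (22.9 to 25.0) were in no other list. The share was 15.04% (14.1 to 16.1) from 20 to 25, 11.2% (10.2 to 12.2) from 25 to 30 and 6.24% (5.57 to 6.99) from 30 to 40. It was 2.29% (1.91 to 2.75) from 40 to 60, and 0.447% (0.336 to 0.594) of the 10516 sites at 60 or more, which leaves 47 strong unique sites of that density. Absence says less for lists that begin higher. All 2963 sites stood above the lowest density of 6 of the 7 other lists and 2872 above that of DNBrg1 cells with tetracycline, 16.4, but only 725 reached 2 times the lowest density of parental cells with tetracycline. In parental cells without tetracycline the same was true of 1560, in DNBrg1 cells with tetracycline of 317 and without it of 2070, and in both DNSnf2h lists of all 2963. The 317 sites that reached 2 times the lowest density of all 7 lists were 10.7% of the strong unique sites.

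**Figure D2:**
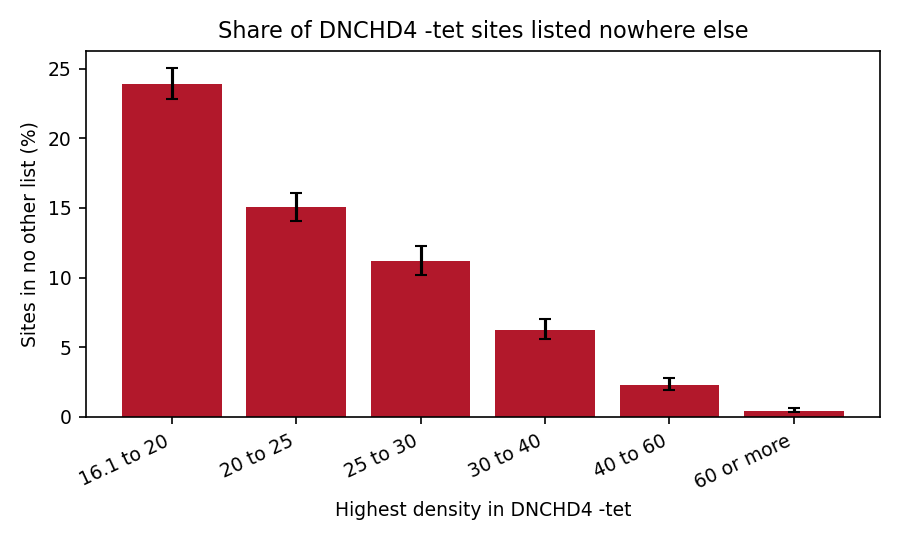
Each bar is the percentage of sites of DNCHD4 cells without tetracycline in a band of highest density that no other library listed, with its 95% Wilson interval. The share falls from 23.9% in the lowest band to 0.447% in the highest.

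The densest strong unique site, on chromosome 1 from 191017978 to 191019153, stood at 149 (763 tags, counting limits 139 and 160) over 1176 bp. Every other list had a hotspot 19475 to 20090 bp away, at 47.6 in uninduced DNCHD4 cells and at 40.6 with and 25.5 without tetracycline in parental cells. The numbering of the uninduced DNCHD4 list lacks 1 number at this position, so a hotspot there may have been numbered and then removed, possibly this one. Why numbers are missing is not stated. The second, on chromosome 6 from 137095292 to 137096097, reached 115 (106 to 125), with an uninduced hotspot of 30.95 at 8080 bp and a lowest uninduced value of 10.7 among the 7 hotspots within 50 kb. No number is missing at that position.

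The next of the densest sites lay in different surroundings. On chromosome 10, 2 strong unique sites stood 166 bp apart, one from 80926996 to 80927705 at 74.6 and one from 80927871 to 80928581 at 102 (93.1 to 111). The nearest uninduced hotspot to the latter was 11930 bp away at 25.2. The site on chromosome 3 from 54218415 to 54219421 had 94.6 (86.3 to 103), and the nearest uninduced hotspot, 16019 bp away, had 14.8. Within 50 kb of this site the uninduced library listed 3 hotspots, of which the weakest had 10.2. A site on chromosome 5 from 112460774 to 112461714 had 87.3 (79.4 to 95.8), with a hotspot of 36.5 at 12354 bp.

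For 2 of the 12 densest sites, the lowest uninduced hotspot listed within 50 kb was denser than the site or nearly as dense. Such a hotspot is not a limit on what would have been listed at the site itself. The site on chromosome 8 from 4679674 to 4680432, at 85.6, lay 45 bp from another hotspot of the same library at 384. The uninduced library listed a hotspot of 335 at 336 bp from the site and nothing else within 50 kb, so a rise is not shown there. The site on chromosome 12 from 3236713 to 3238810, at 95.8, was the widest of all at 2098 bp. It had a single uninduced hotspot within 50 kb, with a density of 91.2 and 47254 bp away. At both positions the neighbouring hotspots were also listed in parental cells, at 341 and 342 near the chromosome 8 site and at 94.2 and 126 near the chromosome 12 site.

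The other 5 of the 12 densest sites stood between 80.3 and 85.2. They were chromosome 7 from 19749360 to 19750082 at 85.2, chromosome 12 from 29239526 to 29240342 at 83.2, and chromosome 10 from 70592870 to 70593579 at 82.1. The site on chromosome 7 from 52389623 to 52390504 had 80.5, and the one on chromosome X from 70284887 to 70285546 had 80.3. Against the lowest uninduced hotspot within 50 kb they were 4.54 to 10.1 times as high. Numbers of the uninduced list are missing at this chromosome 10 site (2) and at the X site (1).

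The threshold did not fall in a gap. The 3 weakest strong unique sites all had 16.3 (83 tags, 12.9 to 20.1), on chromosome 2 from 181260145, chromosome 1 from 182738909 and chromosome 1 from 183547369. The 3 strongest sites left out had 16.1 (16.0584 as deposited, against a threshold of 16.1016), on chromosome 1 from 157927807, chromosome 2 from 157262160 and chromosome 4 from 154360114. The difference is 1 tag.

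Strong unique sites lay close to chromatin that was already open. The median distance to the nearest hotspot of uninduced DNCHD4 cells was 6266 bp (95% interval 5782 to 6654), and 1849 of them (62.4%, 60.6 to 64.1) had one within 10 kb. Among the weaker unique sites the median distance was 31926 bp and 29.04% (28.5 to 29.6) had one within 10 kb. Distance did not enter the rule, apart from the absence of overlap, which both sets share. The 1133 sites as strong but listed in another line had a median of 8428 bp and 55.4% (52.5 to 58.3) within 10 kb. The 302 sites found only in uninduced DNCHD4 cells at the same density had a median of 3230.5 bp to the nearest induced hotspot and 81.1% (76.3 to 85.1) within 10 kb, but the induced list is longer, with 78093 hotspots against 48888. Other strong sites that only 1 DNCHD4 library listed were thus near open chromatin as well.

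The change with density was steepest among the weak sites. Of the unique sites from 5.09 to 6, 7.39% (6.80 to 8.04) had an uninduced hotspot within 10 kb, at a median distance of 175455 bp. The share was 20.1% from 6 to 8, 40.5% from 8 to 10, 50.5% from 10 to 12 and 57.3% (55.7 to 59.0) from 12 to the threshold. Among the strong unique sites it was 60.4% (57.8 to 62.9) up to a density of 20, 65.5% (62.7 to 68.2) from 20 to 30 and 61.01% (56.4 to 65.5) above 30. Within the strong sites these intervals are wide against the differences.

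A smaller group adjoined a listed hotspot. An uninduced DNCHD4 hotspot lay within 1 kb of 468 strong unique sites (15.8%), and in 179 of these the strong unique site was the denser of the pair. The neighbouring uninduced hotspots had a median density of 26.8, against 20.95 at the strong unique sites. When hotspots within 1000 bp of each other were merged, 2398 sites met the rule. At the other extreme, 199 sites (6.72%) had no uninduced hotspot within 50 kb, and 90 had none of any other library within that distance.

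The sites farthest from any hotspot of the other libraries were weak ones. On chromosome 8 from 119194374 to 119194893 a density of 19.98 lay 203797 bp from the nearest hotspot of the other 7 lists. The others were on chromosome 13 from 33662636 to 33663301, at 17.6 and 191265 bp, and on chromosome 9 from 115771762 to 115772435, at 16.6 and 152118 bp. At these 3 positions the uninduced DNCHD4 numbering lacks 5, 5 and 6 numbers, so several hotspots may have been removed from those stretches of the list.

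Against the other lines the distances were longer. The median distance to the nearest hotspot was 8476 bp with and 8642 bp without tetracycline in parental cells, 10680 and 11140 bp in DNBrg1 cells, and 15635 and 12655 bp in DNSnf2h cells. The lists differ in length, from 24890 to 48888 hotspots, and in the density at which they begin. The DNSnf2h list without tetracycline, with 33793 hotspots, lay farther than the shorter DNBrg1 lists, with 29379 and 30423. The part of list length and lowest density in the distances was not tested.

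**Figure D3:**
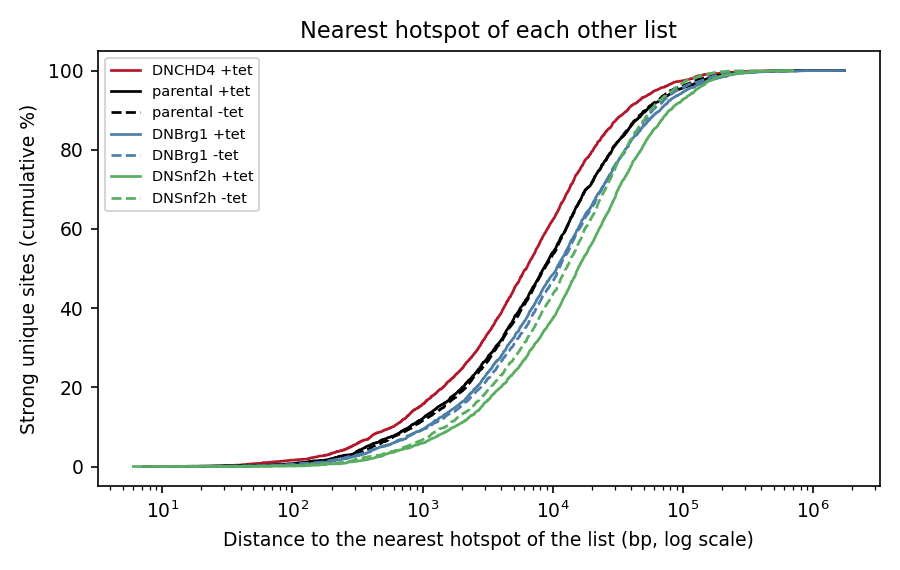
Each curve is the cumulative percentage of the 2963 strong unique sites against the distance in bp (log scale) to the nearest hotspot of 1 other library. The curve of DNCHD4 cells with tetracycline lies to the left at a median of 6266 bp, and that of DNSnf2h cells with tetracycline to the right at 15635 bp.

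With local values as the reference, fewer sites met the rule. The lowest hotspot listed nearby is not a detection limit, and where few hotspots are listed it can be a dense one. Of the 2764 strong unique sites with an uninduced hotspot within 50 kb, 2415 stood above the lowest of those hotspots and 949 stood at least 2-fold above it. Adding the 199 sites without such a hotspot, 1148 sites met the rule with the local value as the reference. A number was missing from the uninduced list at the position of 497 sites (16.8%), and 2466 sites met the rule without them. Of all intervals between hotspots of that list, 10.7% lacked a number. That share counts every interval once whatever its length, so the 2 shares are not directly comparable. Without the 497 sites the median distance to an uninduced hotspot was 5028 bp, against 6266 bp with them. Whether the sites at missing numbers had once been numbered in the uninduced list was not tested.

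At the same density, the median width of strong unique sites was below that of other hotspots of the library in all 6 bands of density. A wider hotspot is more likely to overlap one of another list, so the rule itself favours narrow sites. How much of the difference this makes was not tested. The width of strong unique sites ran from 252 to 2098 bp, with a median of 587 bp and quartiles of 531 and 648 bp. After the chromosome 12 site, the widest were 1757 bp on chromosome 14 from 15179527 to 15181283, with a density of 49.5, and 1587 bp on chromosome 17 from 47616523 to 47618109, with 72.5. The former had no uninduced hotspot within 50 kb and 2 numbers missing at its position, and the latter had one of 11.1 at 1175 bp. Between 16.1 and 20 the median was 556 bp against 585 bp for hotspots listed elsewhere too, and between 30 and 40 it was 651.5 against 690.5 bp. At 60 and above it was 730 bp against 974 bp, although shared hotspots in that open band reach far higher densities. The quartiles overlapped in all 6 bands. The ratio of the mean to the highest density of a hotspot was nearly the same in both sets, with medians of 0.302 and 0.300 between 16.1 and 20, and 0.249 and 0.252 at 60 and above.

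The authors' z-score, a measure of enrichment, was also lower at equal density. It was 19.1 at the median strong unique site between 16.1 and 20, against 21.6 for hotspots listed elsewhere, and 36.6 against 42.2 between 30 and 40. Within the strong unique sites the z-score moved with their surroundings. Sites within 1 kb of an uninduced hotspot had a median z-score of 20.1 and a median density of 20.95, and sites over 50 kb from one had 34.96 at 19.6. Strong unique sites near listed hotspots thus had a lower score for about the same density. This was not particular to them. The median z-score per unit of density was 0.892 within 1 kb and 1.73 over 50 kb, and 1.19 and 1.72 among the weaker unique sites.

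**Figure D4:**
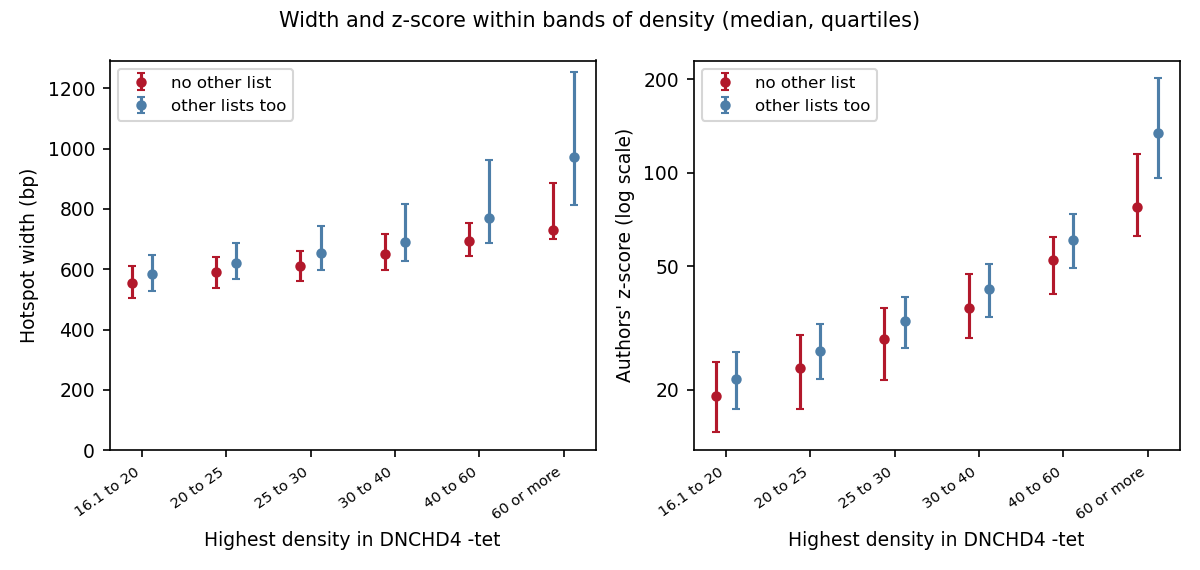
Points are medians and bars are quartiles of hotspot width in bp (left) and the authors' z-score (right, log scale) in bands of highest density, for hotspots of DNCHD4 cells without tetracycline in no other list (red) and in other lists too (blue). Red medians lie below blue ones in all 6 bands of both panels, and the quartiles overlap in every band.

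The sites were unevenly spread over the chromosomes. Across all chromosomes 3.86% of the sites of the induced library were strong unique sites. The share was 6.17% (5.41 to 7.04) on chromosome 17, 5.93% (5.29 to 6.63) on chromosome 5 and 5.66% (5.00 to 6.39) on chromosome 10, with 207, 281 and 241 sites. The lowest shares were 1.42% (0.953 to 2.10) on chromosome X, with 24 sites, and 2.12% (1.69 to 2.66) on chromosome 13, with 73. Per Mb this is 2.24 sites on chromosome 17 and 0.148 on chromosome X. Median densities of the strong unique sites differed little between chromosomes, from 19.2 on chromosome 4 to 24.1 on chromosome X.

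The density of shared sites shifted little by chromosome. At sites listed in both DNCHD4 libraries, the median log2 ratio without over with tetracycline, centred on all such sites, was 0.02 on chromosome 17, 0.04 on chromosome 5 and -0.02 on chromosome 10, and it was 0.02 on chromosome X. It was below 0 on other chromosomes of low share, at -0.07 on chromosome 13, -0.08 on chromosome 14, -0.04 on chromosome 12 and -0.03 on chromosome 18. On chromosomes 8 and 16 it was also below 0, at -0.04 and -0.01, with shares of 4.34% and 4.44%. Chromosome 7 had the highest ratio, 0.05, at a share of 3.90%. The part of these shifts in the shares was not tested. Leaving out the 1 Mb windows with 10 or more strong unique sites, the shares were 5.17% (4.44 to 6.02) on chromosome 17, 4.49% (3.91 to 5.16) on chromosome 5 and 4.41% (3.81 to 5.09) on chromosome 10, against 3.42% (3.29 to 3.55) on all.

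**Figure D5:**
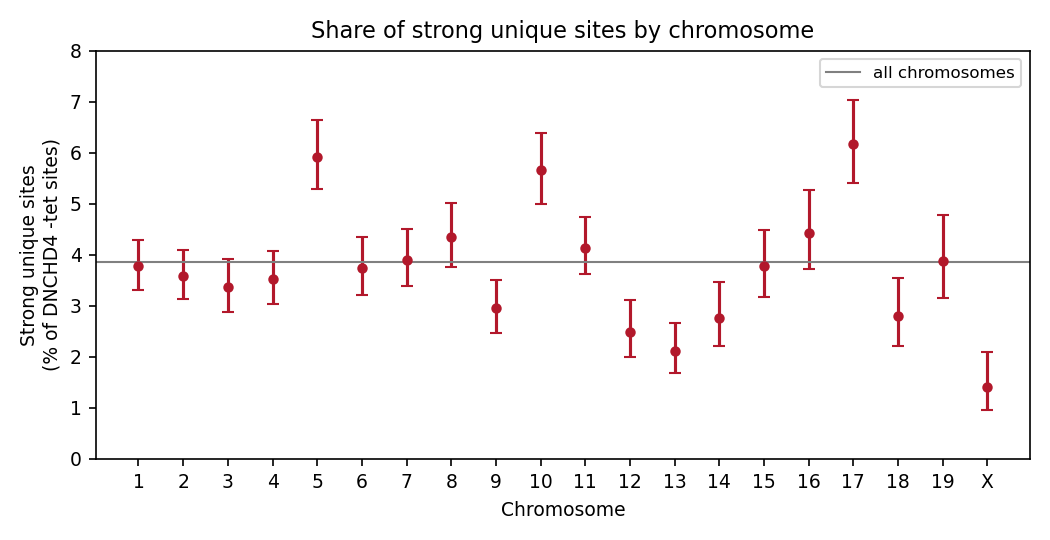
Points are the strong unique sites as a percentage of the sites of DNCHD4 cells without tetracycline on each chromosome, with 95% Wilson intervals, and the grey line is the share on all chromosomes. Chromosomes 5, 10 and 17 lie above the line at 5.93%, 5.66% and 6.17%, and chromosome X lies lowest at 1.42%.

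Many strong unique sites had another one nearby. Another one lay within 100 kb of 1662 sites (56.1%) and within 10 kb of 400 (13.5%), and the median distance to the next was 77186 bp. Any other hotspot of the same library lay within 10 kb of 74.7% of the strong and 49.7% of the weaker unique sites. The grouping was not compared with that of other sites of equal density, so it is not read as particular to these sites. In windows of 1 Mb, 34 windows with 10 or more held 433 sites (14.6%), while 1450 windows with a hotspot in some library held none. The windows with 10 or more were rich in hotspots in every library, with a median of 83 in induced and 68.5 in uninduced DNCHD4 cells and 58.5 in parental cells with tetracycline. Windows with none had medians of 17, 5 and 3. The induced list held 1.23 times as many hotspots as the uninduced list in the former and 2.07 times as many in the latter. That ratio was thus greatest where strong unique sites were absent, but the induced list begins at a density of 5.09 and the uninduced one at 8.05. The part of this difference in the ratio was not tested. It also enters the hotspot counts by window and group given below.

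The window with the most strong unique sites was chromosome 10 from 80 to 81 Mb, with 31, and the one before it, from 79 to 80 Mb, was the next with 23. In the former, the induced DNCHD4 library listed 117 hotspots and the uninduced one 90, against 74 and 71 in parental cells with and without tetracycline, 71 and 62 in DNBrg1 cells, and 52 and 52 in DNSnf2h cells. Windows on chromosome 15 from 78 Mb, chromosome 8 from 122 Mb, chromosome 1 from 74 Mb and chromosome 5 from 112 Mb held 15 each.

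The largest group was on chromosome 5 from 140117227 to 140295244, where 10 strong unique sites fell within 178018 bp. Their densities ran from 17.2 to 49.4 with a median of 28.3. The highest 2 were at 140170886 to 140171519, with 49.4, and at 140117227 to 140117972, with 47.6, and lay 22070 and 27290 bp from an uninduced hotspot. Over the same span the induced library listed 24 hotspots and the uninduced one 15, and the other libraries 8 to 12.

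Groups of 9 and 8 followed on chromosome 10. From 80527245 to 80707674 the 9 sites were weak, 17.2 to 28.4, and one of them, from 80599021 to 80599378 at 22.5, adjoined an uninduced hotspot of 235 at 266 bp. From 80852459 to 81024170 the 8 sites ran from 19.8 to 102 and included, besides the pair 166 bp apart, a site from 80864357 to 80865080 at 75.6, 5040 bp from an uninduced hotspot of 230. The induced library listed 22 and 26 hotspots over these spans and the uninduced library 14 and 16. In the weaker of the 2 groups the z-scores were 9.06 to 16.2, beside 37.02 for the isolated site of density 19.98 on chromosome 8.

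Sites near strong unique sites were examined in each line, taking sites listed in both libraries of the line and centring their log2 ratio without over with tetracycline on the line. In DNCHD4 cells, 471 such sites lay within 1 kb of a strong unique site, at a median centred log2 ratio of 0.19 (SD 0.67 across sites). Of these, 40 (8.49%) had gained and 25 (5.31%) had lost density by a factor of 2 or more, against 5.38% and 8.51% of all 40670 such sites. From 1 to 10 kb the median was 0.06, from 10 to 50 kb 0.03 and beyond 500 kb -0.05. The shift is small beside the spread across sites, and sites are not replicates. The strong unique sites were also chosen by these same DNCHD4 libraries, which can favour a rise at sites close by. The part of this choice in the shift was not tested.

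In the lines that do not hold the dominant-negative CHD4, the medians within 1 kb were nearer 0, but DNSnf2h cells had much the same values farther out. Within 1 kb the median centred log2 ratio was 0.04 in parental cells (343 sites), 0.03 in DNBrg1 cells (257) and 0.09 in DNSnf2h cells (167). In DNSnf2h cells it was 0.04 from 1 to 10 kb, 0.04 from 10 to 50 kb and -0.05 beyond 500 kb. In parental cells it was 0.01, 0.00 and 0.01 at these distances, and in DNBrg1 cells -0.03, -0.02 and 0.01. At least 2-fold higher were 13 sites (3.79%), 5 (1.95%) and 5 (2.99%), against 2.09%, 2.81% and 2.53% of all sites of those lines. At least 2-fold lower were 3 (0.875%), 13 (5.06%) and 6 (3.59%), against 1.82%, 6.96% and 6.39%. The difference between the lines was not tested, since each state of a line is 1 library. The strong unique sites were chosen for a high density in the DNCHD4 line only, so the lines are not on equal terms here.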

How the data were processed

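DNase-seq was measured in 8 libraries, 1 per line and tetracycline state, and groups were taken from the submitters' labels. Per the submitters' processing notes, CASAVA 1.6 and build mm9 were used. Not stated in the sources used here are the caller of the hotspots, its filters and the target to which densities were scaled. The values deposited by the authors for a hotspot are its highest and mean tag density, a coverage signal scaled per library, per the file headers. Every hotspot also has a score of its enrichment (z-score) that the authors computed before deposit, per the file headers. The p-value per hotspot that the authors computed, deposited as 0 in 482 of the strong unique sites, was not used further. In each library 100% of the densities were whole multiples of 1 step within 0.05 tags. Total depth is unknown. Lists begin at 26 to 45 tags.

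Sites, distances (between interval ends) and intervals (Wilson for shares, exact Poisson for tags, order statistics for medians, all 95%) were computed with scipy 1.17.1, pandas 2.3.3 and numpy 2.4.6 under Python 3.11.15, and drawn with matplotlib 3.10.9. Intervals cover counting error only, since fragments are not independent molecules. The calling step was run on simulated lists in which planted sites lay above the threshold and all others below it or in every list. It called the 200 planted sites among 3000 and no other. This outcome was set by the construction, so it checks the code only and says nothing of sites near the threshold. With 1 library per group no difference between groups was tested. The rule named the 12 densest sites, the 3 widest, the 3 farthest from other lists, the 3 largest groups within 100 kb and the 3 on each side of the threshold. A further part, the sites with the most merged hotspots, chose none because each has 1. The members and settings were chosen with earlier results of these data known. Other thresholds, references, merging distances, scalings and list sets were tried.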

Additional observations from a re-analysis of the deposited data

How the results depend on the processing

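The number of strong unique sites stayed within 1.5 times of 2963 in 13 of 22 settings, among them merging within 200 or 1000 bp, setting the median ratio of the DNCHD4 libraries to 1, and leaving out the sites with a missing number. Leaving out 1 list of another line gave 2976 to 3272, in settings chosen after seeing the data. The count was 6367, 905 and 337 at 1.5, 3 and 4 times the lowest uninduced density, 1148 with the local lowest value, and 528 with all lists begun at 16.4. It was 647 without windows of over 40 hotspots, and 29931 with the mean density, whose lowest value in the uninduced list was 0.552. Settings added after seeing the data gave 317 (above 2 times the lowest density of all lists) and 1658 (lower counting limit). The median distance to an uninduced hotspot, 6266 bp, became 8449 bp with merging within 1000 bp, 5636 bp at 4 times and 5028 bp without missing numbers. The median width of 587 bp became 592 and 684 bp in the first 2 of these.

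By the same rule in the other libraries, a reference of 16.4 for all gave 0 in both parental and both DNSnf2h libraries, 21 in DNBrg1 with tetracycline and 1 in DNCHD4 with tetracycline. With the median ratio of a line set to 1, the counts were 0 and 6 in parental cells with and without tetracycline, 37 and 19 in DNBrg1 cells, and 2343 in DNCHD4 cells with tetracycline. At 16.1 for all, a setting added later, they were 37 and 19 in parental cells (0.125% and 0.0800% of the sites at or above it). They were 332 and 89 in DNBrg1 cells (1.17% and 0.476%), and 302 in DNCHD4 cells with tetracycline (0.978%). The order of the parental counts thus turned with the scaling, and that of the DNBrg1 counts did not. Set the same way, DNCHD4 cells without tetracycline had 317, 2788 and 2963, more than any other library, and their list is also the longest. Densities are scaled per library, so 1 threshold for all is not equal across lines. No paired analysis was possible because each line has 1 library per state, which leaves no spread for a difference within the DNCHD4 line, and the numbers in the labels follow the tetracycline state.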
